A study of Mus musculus with 4 samples.

Results

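The genes described here are 8 interferon-inducible GTPases of the mouse: Irgm1, Irgm2, Igtp, Iigp1, Tgtp1 and Tgtp2 of the immunity-related GTPase (IRG) family, and Gvin1 and Gm4070 of the very large inducible GTPases. They were picked by name out of 55450 genes in the count table because their counts were lower after mechanical loading. Their difference between loaded and unloaded cells is therefore given as a description, and no test of it is read. RNA was sequenced after ribosomal RNA depletion from MLO-Y4 cells, an immortalized mouse line used as a model of osteocytes, labelled WT in both groups. The 2 loaded samples were grown to 60% confluency on collagen I-coated flexible silicone plates and stretched equiaxially for 12 h by a Flexcell FX5000 system, with a strain of 20% applied at 0.5 Hz. The 2 unloaded samples were at the same confluency on ordinary culture plates and stood in the incubator of that system for 12 h without stretch. Stretch, plate material and coating therefore cannot be told apart in any difference below, and all samples come from 1 cell line.

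IRG proteins are GTPases that interferons, above all interferon gamma, induce strongly in mouse cells. The regulatory members Irgm1, Irgm2 and Igtp (also called Irgm3) sit on the cell's own membranes and hold the effector members in their inactive state there. The effectors, among them Iigp1 (Irga6) and the Tgtp proteins (Irgb6), assemble on the vacuoles of intracellular parasites and bacteria and help to break them open. The very large inducible GTPases are a related group of giant interferon-induced proteins whose function is little known.

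The 2 subfamilies of IRG proteins are told apart by the codon read seventh in their GTP-binding motif, and these bases are shown because they carry that division. The sequences are coding bases of GENCODE M21 transcripts on GRCm38, each within 1 coding exon, with the seventh codon in capitals. The regulatory members had a methionine codon there, and the 24 bases were identical in Irgm1 (chr11:48866761-48866784, minus strand, from codon 83), Irgm2 (chr11:58219695-58219718, plus strand, from codon 83) and Igtp (chr11:58206275-58206298, plus strand, from codon 91). The effectors Tgtp1 (chr11:48987667-48987690, minus strand) and Tgtp2 (chr11:49059534-49059557, minus strand) had a lysine codon in a motif that began at codon 63 of each. Gvin1 (chr7:106160755-106160778, minus strand) and Gm4070 (chr7:105899338-105899361, minus strand) had it in a motif that began at codon 1495 of 2427. Iigp1 also had the lysine codon, in a motif that began at codon 76.
Irgm1: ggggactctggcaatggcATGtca
Tgtp1: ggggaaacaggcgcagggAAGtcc
Gvin1: ggcctgcagagctcagggAAGtct

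Interferon-responsive genes often carry 2 short promoter motifs. These are the interferon-stimulated response element (ISRE), bound by factors of the IRF family, and the gamma-activated sequence (GAS). RefSeq promoters on GRCm38.p6, from 250 bases before to 50 bases after the transcription start, were matched for 5 of the 8 genes. They were searched on both strands for the ISRE core, which is GAAA, 2 bases of any kind and GAAA again, and for the GAS letters TTCNNNGAA (N is any base), which read the same on either strand. The windows below show the matches in capitals, because 4 of the 5 share 1 arrangement. They lie at chr11:48871428-48871457 (Irgm1, minus strand), chr11:58214877-58214936 (Irgm2, plus), chr11:58199486-58199545 (Igtp, plus), chr11:48992300-48992359 (Tgtp1, minus) and chr11:49064259-49064318 (Tgtp2, minus). In the GENCODE models the Irgm1 window was inside an exon of a longer Irgm1 transcript, the Irgm2 and Tgtp1 windows were inside introns of longer transcripts of the same gene, and the Igtp and Tgtp2 windows were upstream of the gene.
Irgm1: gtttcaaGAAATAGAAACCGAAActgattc
Irgm2: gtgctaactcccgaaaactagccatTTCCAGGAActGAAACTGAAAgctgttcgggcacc
Igtp: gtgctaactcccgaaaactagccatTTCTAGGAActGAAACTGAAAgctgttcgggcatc
Tgtp1: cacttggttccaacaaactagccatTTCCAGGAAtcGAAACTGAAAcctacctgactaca
Tgtp2: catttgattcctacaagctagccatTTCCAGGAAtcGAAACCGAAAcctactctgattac

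In Irgm2, Igtp, Tgtp1 and Tgtp2 the GAS letters stood 2 bases before the ISRE core, and the core ended 54, 24, 67 and 60 bases before the start. Irgm1 had no GAS match and 2 ISRE cores that overlapped each other, at -30 to -21 and -24 to -15 from the start. Of 32851 mouse promoters of 300 bases, 3.44% held an ISRE core, 8.30% held GAS letters and 0.454% held both. The joined arrangement of GAS letters, 2 bases and an ISRE core, which was chosen after these promoters had been seen, was found in 5 promoters, those of Irgm2, Igtp, Tgtp1, Tgtp2 and a further IRG gene, Gm12185. The Irgm2 and Igtp windows were 96.7% identical and those of Tgtp1 and Tgtp2 78.3%. Among the 7 other IRG genes with a promoter in the table, Gm12250 held 2 ISRE cores and GAS letters, 9930111J21Rik1 held an ISRE core at 27 to 36 bases after the start, and 4 held neither motif (Ifi47, Irgq, 9930111J21Rik2 and Gm5431). A match says only that the letters are present, not that a factor binds there.

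**Figure D1:**
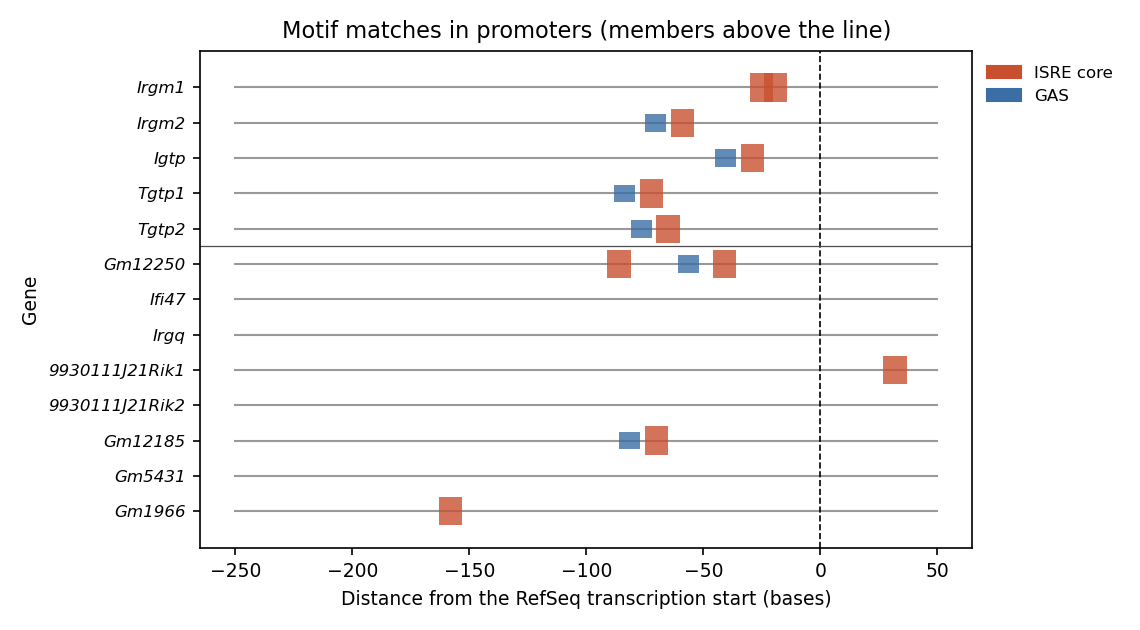
Matches of the ISRE core (red) and of the GAS letters (blue) along RefSeq promoters, by distance from the transcription start in bases, for the 5 genes described (above the line) and for other IRG and very large inducible GTPase genes. In Irgm2, Igtp, Tgtp1, Tgtp2 and Gm12185 a GAS match stands 2 bases before an ISRE core, and Irgm1 shows 2 overlapping ISRE cores.

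The libraries held 28941994 to 32185693 counts, so that 3 counts equalled 0.0932 to 0.104 CPM (counts per 1000000 counts of the library). Values below are CPM normalized by trimmed mean of M-values (TMM), with factors between 0.983 and 1.01. Of the osteocyte markers, Pdpn, Gja1, Phex and Col1a1 were expressed in every library, Dmp1 had 12 to 14 counts, Mepe and Fbln7 had 0, and Sost, Fgf23 and Bglap had at most 9. Of the immune cell markers, Cd3e and Nkg7 were at 0, Ptprc, Adgre1 and Itgam had at most 4 counts, and Csf1r was at 1558 to 1584 CPM. The 8 markers reported beside Csf1r summed to 7.75 and 6.10 CPM in unloaded and 4.65 and 4.16 CPM in loaded cells. The largest part was Cd68, at 5.58 and 4.65 CPM in unloaded and 3.07 and 2.82 CPM in loaded cells (log2 difference -0.80, edgeR adjusted p = 0.216). Next was Lyz2, at 1.65 and 1.12 CPM in unloaded and 1.12 and 1.07 CPM in loaded cells. The part of the immune cell markers in the differences below was not tested. In such bulk samples, fewer cells of a type and less RNA per cell cannot be told apart. The labels do not say whether the 2 samples of a group came from separate cultures, so p-values measure only the spread between these samples, which may be technical.

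All 8 genes were lower in both loaded libraries than in either unloaded library, a separation that 24.5% of the 16269 tested genes also showed in that direction. Their log2 differences, loaded minus unloaded, ran from -1.70 to -0.76 with a median of -1.24, against -0.01 over all tested genes. The summed level of the 8 genes was 609 and 622 CPM in the unloaded and 258 and 285 CPM in the loaded libraries, so that loaded cells held 44.1% of the unloaded mean. By the quasi-likelihood F test of edgeR with Benjamini-Hochberg adjustment and a threshold of 0.01, Gvin1 and Gm4070 were among the 0.0861% of tested genes called lower, while 0.0123% were called higher. At 0.05 it was 7 of the 8, against 0.565% lower and 0.338% higher, and DESeq2 at 0.01 called all 8, against 1.52%. Since these genes were chosen on this contrast, nothing is read from those counts. The edgeR count at 0.01 changed when 1 library was left out, as it did over all genes. The median log2 difference of the 8 genes then ran from -1.29 to -1.18.

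**Figure D2:**
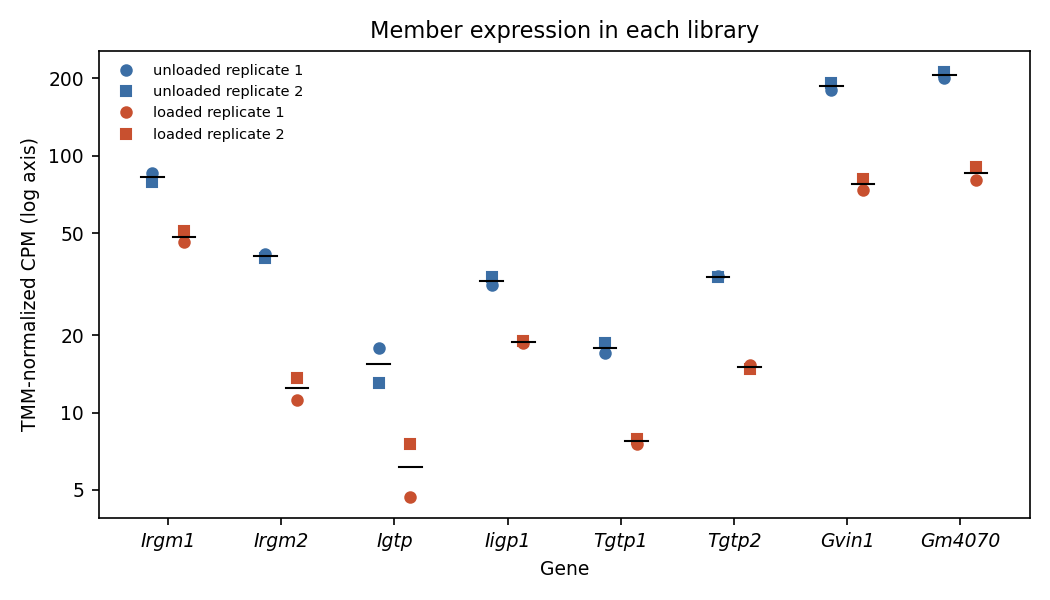
TMM-normalized CPM on a log axis for each of the 8 genes, with 1 point per library and the 2 groups side by side. The loaded points lie below the unloaded points for every gene, and the loaded pair is widest apart in Igtp, at 4.71 and 7.55 CPM.

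Irgm1, a regulatory GTPase that is also needed for autophagy and for the control of mycobacteria, had the highest level per kilobase of exon among the regulatory genes. It lies at chr11:48861968-48871683 (ENSMUSG00000046879.7, minus strand). Its levels were 85.9 and 78.8 CPM in the unloaded libraries and 46.2 and 50.8 CPM in the loaded libraries. The groups did not overlap, and loaded cells held 58.9% of the unloaded mean (82.3 ± 5.05 against 48.5 ± 3.22 CPM, SD, n = 2). The log2 difference was -0.76 (SE 0.10), the smallest of the 8.

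Irgm2, which resides at the Golgi and restrains effector GTPases, showed the widest difference of the 8. It lies at chr11:58199618-58222782 (ENSMUSG00000069874.7, plus strand). The unloaded libraries held 1199 and 1207 counts (41.3 and 39.8 CPM) and the loaded libraries 362 and 408 (11.2 and 13.7 CPM). The loaded libraries were far below the unloaded pair, at 30.7% of its mean (40.6 ± 1.03 against 12.5 ± 1.75 CPM, SD, n = 2). The log2 difference was -1.70 (SE 0.13).

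Igtp, the regulatory GTPase of the endoplasmic reticulum and lipid droplets, was the least even between replicates. It lies at chr11:58199556-58207591 (ENSMUSG00000078853.8, plus strand) and overlaps the longest Irgm2 model. Its levels were 17.9 and 13.0 CPM in unloaded and 4.71 and 7.55 CPM in loaded cells (15.4 ± 3.44 against 6.13 ± 2.01 CPM, SD, n = 2). The groups did not overlap, and the loaded mean was 39.7% of the unloaded mean. The log2 difference was -1.33 (SE 0.28), while the 2 loaded libraries differed from each other by 0.67 on the log2 scale. In the other 7 genes, replicates of a group differed by at most 0.29.

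The 3 regulatory genes were thus not lower by a common factor. The ratio of Irgm1 to Irgm2 counts within a library was 2.08 and 1.98 in unloaded cells and 4.12 and 3.71 in loaded cells. The ratio of Irgm2 to Igtp was 2.31 and 3.06 in unloaded and 2.38 and 1.81 in loaded cells, where the groups overlapped. Irgm2 and Igtp share 162 bp of exon on the same strand (8.01% of the exon bases of Igtp and 4.39% of those of Irgm2), so reads from that stretch could have been counted for either.

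Iigp1, the effector GTPase best known for loading onto vacuoles of Toxoplasma gondii, lies at chr18:60376027-60392634 (ENSMUSG00000054072.12, plus strand). Its levels were 31.3 and 33.9 CPM in the unloaded libraries and 18.7 and 19.0 CPM in the loaded libraries. The loaded pair was nearly equal and stood below both unloaded libraries, at 57.8% of their mean (32.6 ± 1.83 against 18.8 ± 0.19 CPM, SD, n = 2). The log2 difference was -0.79 (SE 0.11), close to that of Irgm1 and smaller than those of the remaining 6 genes.

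Tgtp1 and Tgtp2, both encoding the effector Irgb6, lie at chr11:48985327-48994172 (ENSMUSG00000078922.9, minus strand) and chr11:49057194-49064206 (ENSMUSG00000078921.3, minus strand). Tgtp2 was at 34.0 and 33.7 CPM in unloaded and 15.3 and 14.8 CPM in loaded cells (33.8 ± 0.18 against 15.1 ± 0.41 CPM, SD, n = 2). Tgtp1 was at 17.0 and 18.6 CPM in unloaded and 7.56 and 7.92 CPM in loaded cells (17.8 ± 1.13 against 7.74 ± 0.25 CPM, SD, n = 2). Neither gene's groups overlapped. The log2 differences were -1.20 (SE 0.14) for Tgtp1 and -1.17 (SE 0.10) for Tgtp2, and the ratio of Tgtp2 to Tgtp1 counts was between 1.81 and 2.03 in the 4 libraries.

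The coding sequences of Tgtp1 and Tgtp2 differed at 4 of 1245 bases, and 73.1% and 76.8% of their 100-base transcript stretches also occurred in another gene. Tgtp1 also shared 223 bp of exon with Gm12185 on the same strand. How the counting split reads between these genes is uncertain. Summed to 1 gene, they gave 1480 and 1585 counts in unloaded and 739 and 676 counts in loaded libraries, and the log2 difference of the sum was -1.18 (SE 0.09).

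Gvin1 (ENSMUSG00000045868.12, chr7:106156556-106215326, minus strand) and Gm4070 (ENSMUSG00000078606.8, chr7:105895139-105953967, minus strand), the very large inducible GTPases, carried most of the counts. Together they made 62.7% and 65.0% of the summed CPM of the 8 genes in unloaded and 59.8% and 60.2% in loaded libraries. Gvin1 was at 181 and 192 CPM in unloaded and 73.4 and 81.2 CPM in loaded libraries (186 ± 7.59 against 77.3 ± 5.54 CPM, SD, n = 2). Gm4070 was at 200.3 and 212 CPM in unloaded and 80.6 and 90.4 CPM in loaded libraries (206 ± 8.29 against 85.5 ± 6.87 CPM, SD, n = 2). Both genes were low in both loaded libraries, at 41.5% of the unloaded mean, and the log2 difference was -1.27 (SE 0.08) for each.

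These 2 genes could hardly be separated by sequence. Their coding sequences of 7281 bases differed at 3 positions, and 97.8% (Gvin1) and 95.6% (Gm4070) of their 100-base stretches occurred in another gene. The ratio of Gm4070 to Gvin1 counts was between 1.10 and 1.11 in all 4 libraries. How reads that match both genes were counted is not known, so their split, their sum and their share of the summed level are uncertain. The sum of Gvin1 and Gm4070 gave 11074 and 12236 counts in unloaded and 4970 and 5114 in loaded libraries, with a log2 difference of -1.27 (SE 0.08). When each near-identical pair was counted as 1 gene, 1 of the 6 resulting genes was called at an adjusted p under 0.01 (edgeR). The share of all genes called in that fit is not given here. Since the genes were chosen on this contrast, nothing is read from this count. Gvin1 also shared 10.4% of its 100-base stretches with 9130208D14Rik, which was at 32.7 and 28.8 CPM in unloaded and 20.0 and 19.6 CPM in loaded libraries. The Irgm1 transcripts, in contrast, shared none of their 100-base stretches with another gene.

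**Figure D3:**
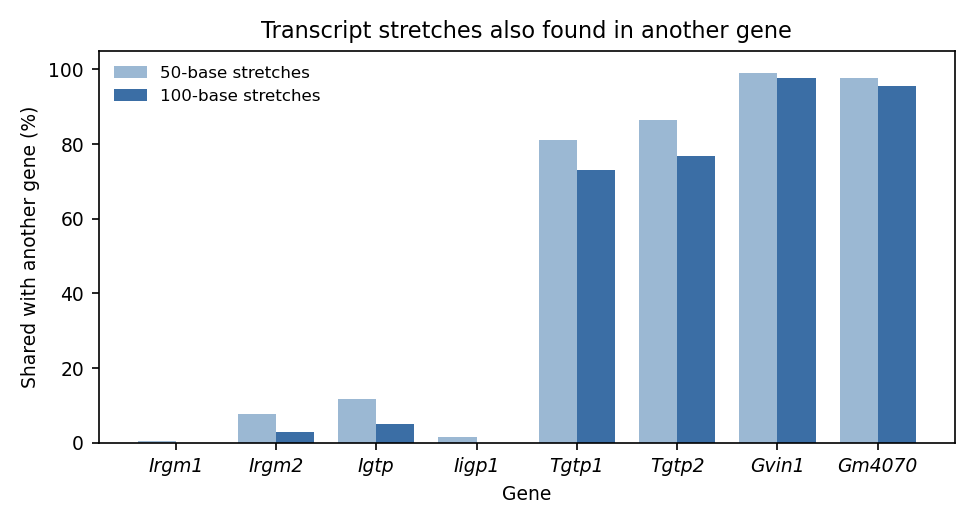
Share of 50-base and 100-base stretches of the annotated transcripts of each gene that also occur in transcripts of another gene, in percent. Gvin1 and Gm4070 stand above 95%, Tgtp1 and Tgtp2 between 73.1% and 86.6%, and the other 4 genes at or below 11.8%.

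Per kilobase of annotated exon, the unloaded order of levels was Gm4070 (22.2 ± 0.89 CPM per kb, SD, n = 2), Gvin1 (20.7 ± 0.84), Irgm1 (14.2 ± 0.87), Tgtp2 (11.5 ± 0.06), Irgm2 (11.0 ± 0.28), Igtp (7.63 ± 1.70), Iigp1 (5.59 ± 0.32) and Tgtp1 (5.56 ± 0.35). Of the 7 neighbouring pairs in that order, Iigp1 and Tgtp1 alone overlapped between libraries. In loaded cells the same quantity was 9.22 for Gm4070, 8.59 for Gvin1, 8.35 for Irgm1, 5.12 for Tgtp2, 3.38 for Irgm2, 3.23 for Iigp1, 3.03 for Igtp and 2.42 for Tgtp1. There 5 of the 7 neighbouring pairs overlapped, the exceptions being Irgm1 with Tgtp2 and Tgtp2 with Irgm2. Irgm1 thus stood well below Gvin1 in unloaded cells and overlapped it in loaded cells. With the longest transcript as length, Irgm1 was at 21.5 and Iigp1 at 10.4 CPM per kb in unloaded cells, so their places in the order depend on the gene model.

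The 8 genes lay on 3 chromosomes, 5 of them on chromosome 11, 2 on chromosome 7 and 1 on chromosome 18. On chromosome 11, Tgtp1 lay 113643 bp from Irgm1 and 63021 bp from Tgtp2, while Igtp and Irgm2 formed a second cluster 9135349 bp farther on. Irgm1 and Tgtp1 follow each other among the 8, with promoters of other IRG genes between them, and differed in their log2 difference (-0.76 and -1.20). The 4 of the 8 genes with the joined promoter arrangement ranged from -1.70 to -1.17. Gm12185, the other gene with that arrangement, was at -0.97. IRG genes with a matched promoter but without that arrangement ran from -2.03 (Gm12250) to 0.69 (Gm5431). Gvin1 and Gm4070, which had no matched promoter, were at -1.27. A link between the arrangement and the size of the difference was not tested.

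Most other IRG genes had a log2 difference below 0, but none passed the test. Of 12 listed, 11 were tested, and edgeR called 0 in either direction at an adjusted p under 0.01. An unadjusted edgeR p under 0.05 was found in 8 of the 11, against 2333 of all 16269 tested genes. DESeq2 called 1 lower, against 1.52% of the genes it adjusted. The median log2 difference of the 11 was -0.69, with 9 below 0 and 2 above. By smallest p these were Gm4951 (-1.29, edgeR adjusted p = 0.0542, and the gene DESeq2 called), BC023105 (-1.73, 0.0935), Gm12185 (-0.97, 0.172) and Ifi47 (-0.69, 0.211). Gm4951 was at 11.3 and 14.5 CPM in unloaded and 5.45 and 5.07 CPM in loaded libraries. The gene of the list with the most counts, 9930111J21Rik2, was at 174 and 186 CPM in unloaded and 147 and 161 CPM in loaded libraries, a log2 difference of -0.23. Irgq, an IRG-like gene not known as interferon-induced, was at 37.9 and 39.2 CPM in unloaded and 45.3 and 51.2 CPM in loaded libraries (edgeR adjusted p = 0.252). These last 2 genes were chosen after their values were seen.

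The other very large inducible GTPase genes had smaller log2 differences than Gvin1 and Gm4070. Of 15 names, 10 matched no row and were not analysed here, and 4 passed the filter on low counts. None was called by edgeR or DESeq2 at 0.01, and 2 of the 4 had an unadjusted edgeR p under 0.05, against 2333 of all 16269 tested genes. Gm8995, which had the most counts, was at 257 and 253 CPM in unloaded and 220 and 215 CPM in loaded libraries, a log2 difference of -0.23 (edgeR adjusted p = 0.171) against -1.27 for Gvin1. Gm8979 had a log2 difference of -0.54, Gm8989 of -0.27 and Gm1966 of -0.18. Gvin1 shares 21.97% of its 50-base stretches with Gm8979 and 5.26% with Gm8995, so these genes too may exchange reads.

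**Figure D4:**
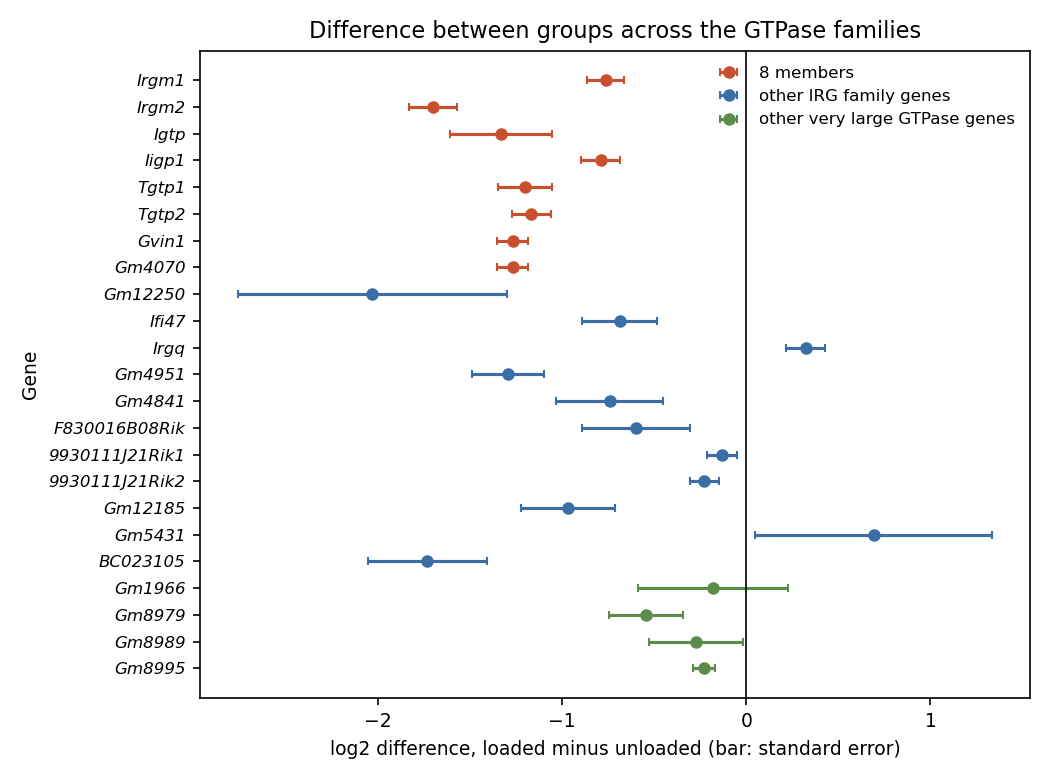
log2 difference between loaded and unloaded cells with its standard error for the 8 genes and for the tested members of the other GTPase lists, 1 point per gene. The 8 genes lie between -1.70 and -0.76, and among the other IRG genes values run from -2.03 (Gm12250, with 5 to 68 counts per library) to 0.69 (Gm5431).

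Guanylate-binding proteins (GBPs) are interferon-induced GTPases that act with IRG proteins on pathogen vacuoles. Of the 11 in the list, which was chosen with earlier results of these data known, 10 were tested. At an adjusted p under 0.01, edgeR called 2 lower and 0 higher, against 0.0861% and 0.0123% of all tested genes. DESeq2 called 7 lower, against 1.52% of the genes it adjusted. Gbp3 fell by 1.23 on the log2 scale, from 91.4 and 93.0 to 38.9 and 39.7 CPM (edgeR adjusted p = 0.0081). Gbp7 fell by 1.14, from 159.6 and 146.3 to 69.2 and 70.0 CPM (edgeR adjusted p = 0.0081). All 10 had values below 0, with a median of -1.19, close to the -1.24 of the 8 genes. The number called by edgeR changed when 1 library was left out, as it did over all genes. The log2 difference then ran from -1.25 to -1.21 for Gbp3 and from -1.20 to -1.06 for Gbp7.

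The median log2 difference of 18 genes of the interferon signal was smaller in size than that of the 8 GTPases, though single genes reached their range. None of the 18 was called at an adjusted p under 0.01 by edgeR. An unadjusted edgeR p under 0.05 was found in 9 of them, against 2333 of all 16269 tested genes. DESeq2 called 7 of the 18 lower, against 1.52% of the genes it adjusted. The median was -0.37, against -1.24 for the 8 GTPases, and the groups did not overlap in 14 genes that were lower and 2 that were higher in loaded cells, against 24.5% and 22.1% of all tested genes. The factor genes Stat2 (log2 difference -0.81, edgeR adjusted p = 0.0378) and Irf9 (-0.79, 0.0410) and the receptor kinase gene Jak2 (-0.46, 0.0445) were among those with the smallest p. The largest difference of the list was that of Usp18, an inhibitor of interferon signalling, at 9.02 and 7.72 CPM in unloaded and 2.48 and 3.15 CPM in loaded libraries (-1.57, edgeR adjusted p = 0.0510, called lower by DESeq2). Usp18 and Ifngr1 are named after their values were seen. The receptor chain gene Ifngr1 was uneven between replicates, at 37.0 and 48.5 CPM in unloaded and 17.0 and 25.1 CPM in loaded cells. Its log2 difference was -1.02 (edgeR adjusted p = 0.127, called lower by DESeq2).

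Interferon transcripts themselves had few counts, with at most 31 for any gene in any library. These genes were looked up after the other values were seen. Ifng had 0 counts in 3 libraries and 2 counts in loaded replicate 2. Ifnb1 had 8 and 31 counts in unloaded and 4 and 0 counts in loaded libraries. The 13 Ifna genes summed to 5, 4, 0 and 4 counts, and Ifne had 0 and 3 counts in unloaded and 4 and 4 counts in loaded libraries. Ifnl2, Ifnl3 and Ifnk were at 0 throughout, where 3 counts would equal 0.0932 to 0.104 CPM.

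A list of autophagy genes, with the ATG8 conjugation genes that steer IRG proteins and GBPs to vacuoles as well as initiation factors and cargo receptors, was centred on 0. Of 16 tested, edgeR called 0 in either direction at 0.01, and 1 had an unadjusted p under 0.05, against 2333 of all 16269 tested genes. The median log2 difference of the 16 was 0.00, with 8 genes below and 8 above 0. The gene with the smallest p was Sqstm1, the autophagy receptor p62, at 456 and 487 CPM in unloaded and 590 and 586 CPM in loaded libraries (log2 difference 0.32, edgeR adjusted p = 0.0928), which DESeq2 called higher, as it did 1.34% of the genes it adjusted. The dynamin-related GTPases, membrane GTPases not known as interferon-induced, gave 0 calls of 14 in either direction by edgeR and DESeq2. Their median was -0.01, and 2 of the 14 had an unadjusted edgeR p under 0.05, a threshold passed by 2333 of all 16269 tested genes. Of the 14, Mfn2, a GTPase of mitochondrial fusion, had a log2 difference of 0.25 (edgeR adjusted p = 0.180) and the endosomal Ehd1 one of 0.19 (edgeR adjusted p = 0.252). The interferon-induced dynamin-like gene Mx2 was at 8.13 and 6.17 CPM in unloaded and 2.26 and 1.34 CPM in loaded libraries (-1.98, edgeR adjusted p = 0.0689, called lower by DESeq2), and Mx1 had 4 to 13 counts per library (-0.32, edgeR adjusted p = 0.906).

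**Figure D5:**
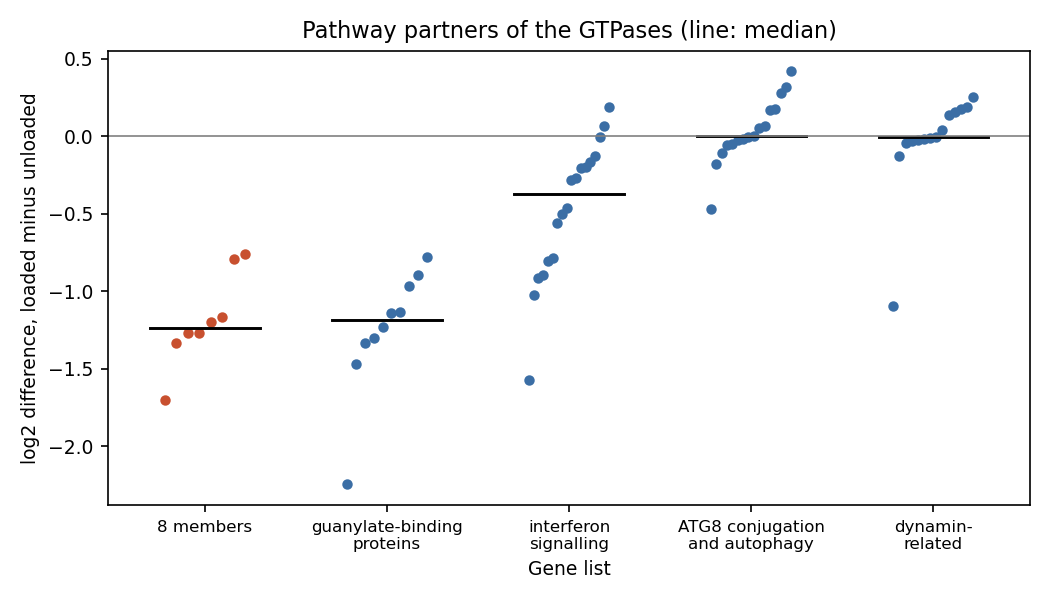
log2 difference between loaded and unloaded cells for each tested gene of the GTPase and pathway lists, with a line at the median of each list. The medians lie at -1.24 for the 8 genes and -1.19 for the guanylate-binding proteins, at -0.37 for interferon signalling and near 0 for the autophagy and dynamin-related lists.

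Among tested genes with a RefSeq promoter, the 52 with both motifs had a median log2 difference of -0.18, and -0.12 over the 48 that are not among the genes described here. It was -0.05 for the 332 with an ISRE core without GAS letters, -0.02 for the 840 with GAS letters alone and -0.01 for the 9342 with neither. Without the genes described here, a log2 difference of -0.5 or lower was found in 31.2%, 19.0%, 9.05% and 7.85% of these 4 classes. These are counts over genes, without a test.

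The 5 genes whose profile over the 4 libraries was nearest to the mean profile of the 8 were sought among 13316 genes with a mean of at least 1 CPM. By Euclidean distance of centred log2 values they were Vcam1 (distance 0.104), an adhesion molecule, C1qtnf1 (0.104), Dnajc28 (0.105), Oas1g (0.118), an interferon-induced oligoadenylate synthetase, and Gbp3 (0.119). A gene with no change would have a distance of 1.19. Vcam1 was at 269 and 274 CPM in unloaded and 120 and 135 CPM in loaded libraries. Of the 8 genes themselves, Gm4070 and Gvin1 lay nearest to their mean, at 0.115 and 0.117, and Irgm2 farthest, at 0.523. All 8 genes enter that mean. The near-identical Gvin1 and Gm4070 both weigh on it, so their closeness to it is partly built in.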

How the data were processed

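Read counts per gene were deposited for 4 libraries. The authors aligned reads to mm10 with HISAT2 2.1.0, assembled them with StringTie 1.3.5, exported counts with its prepDE script and tested them with DESeq2 1.32.0. The annotation release, strandedness and read length are not given in the sources used here. All 55450 gene IDs matched GENCODE M21, and 27 gene names that were whole numbers were treated as ordinary rows. Groups came from the sample labels.

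From the deposited counts, genes were filtered with filterByExpr, leaving 16269, scaled by TMM and tested with edgeR 4.0.16 (quasi-likelihood F test, Benjamini-Hochberg adjustment over all tested genes, threshold 0.01). The biological coefficient of variation was 16.6%. The fit was tested on simulated data. The 8 genes and all lists were chosen with earlier results of these data known. Named were the 8 genes, genes called in each list or else up to 4 by smallest p, the 5 nearest profiles, markers and genes sharing sequence. A listed immune marker and a listed signalling gene are not reported here. Exon lengths and transcripts came from GENCODE M21, promoters from RefSeq (GRCm38.p6). Alternatives were DESeq2 1.42.0, limma-voom 3.58.1, other scaling factors, filters, threshold and gene length, a replicate block, summed near-identical pairs and leaving out each library. Counting error limits precision at low counts.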

Additional observations from a re-analysis of the deposited data

How the results depend on the processing

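The 8 genes were chosen on this contrast, so nothing is read from their direction or their calls below. Their groups did not overlap, so a lower level in loaded cells in every fit was given in advance. Their median log2 difference lay between -1.29 and -1.18 over 12 alternative fits. Counts of calls differed between fits. For all genes (14 lower and 2 higher), DESeq2 gave 192 and 169, a minimum of 10 counts in every library 25 and 4, a threshold of 0.05 92 and 55, and no filter 0 and 0 (2435 at an unadjusted p under 0.05). For the 8 genes (2 lower), DESeq2 gave 8, the 0.05 threshold 7, no filter 0 and summed pairs 1. For guanylate-binding proteins (2 lower), DESeq2 gave 7, the 0.05 threshold 6, the stricter filter 4 and no filter 0. DESeq2 called 1 other IRG gene and 7 signalling genes lower and 1 autophagy gene higher, and the 0.05 threshold gave 4 signalling genes lower. Leaving out 1 library gave 0 to 40 lower and 0 to 19 higher calls over all genes, 0 to 3 among the 8 genes and 0 to 4 guanylate-binding proteins, and each 0 came without a loaded library, when the lone loaded library is assumed to vary like the other group. Over the fits that left out 1 library, the log2 difference of Gm1966 ran from -0.45 to 0.050 and was above 0 without loaded replicate 1, and that of Igtp ran from -1.71 to -1.03. The causes were not tested.

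Replicate numbers were not treated as pairs: the labels name no shared batch, and deviations of same-numbered libraries correlated at -0.057 over 16269 genes. With only 2 pairs, that correlation cannot exclude a shared batch. With the replicate block, edgeR called 0 genes lower and 0 higher, 0 of the 8 genes and 0 guanylate-binding proteins at 0.01, with 1839 genes at an unadjusted p under 0.05 and 62 at an adjusted p under 0.05.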
